A study of Drosophila melanogaster with 3 samples.

Results

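The Cpr genes of Drosophila melanogaster encode structural proteins of the chitin-based cuticle. They were taken as every protein-coding gene whose symbol is Cpr followed by digits and letters, which gave 70 of the 13968 protein-coding genes annotated on the chromosome arms. Most Cpr proteins carry the Rebers-Riddiford domain, through which they bind chitin, and the epidermis secretes them into the layered cuticle before each moult and before hatching. In the embryo the cuticle is laid down late, and many Cpr genes lie side by side in tandem arrays that arose by gene duplication. Achaete (Ac) is a transcription factor of the basic helix-loop-helix class and one of the proneural proteins. It binds E-box sequences as a dimer with Daughterless and directs ectodermal cells towards a neural fate.

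Binding was measured by chromatin immunoprecipitation and sequencing with an antibody against green fluorescent protein. The material was whole embryos aged 0 to 8 h, with males and females pooled, from a transgenic strain that stably expressed ac with GFP joined to its C terminus. Chromatin was sonicated to a range of 200 to 800 bp. The study had 3 biological replicates of this 1 group and no second condition, so the Cpr genes were compared with other genes and across replicates. Because embryos were used whole, the regions do not tell which cells carried the tagged protein on their chromatin.

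The authors' optimal list of reproducible regions on genome build dm6 held 2756 regions, which were also the 2756 strongest of the list made from all replicates together. Each replicate was represented by its own 2756 highest-ranked regions, called its top regions. The replicates differed in how many of their 30000 regions had a q value of at most 0.05, with 3453 in replicate 1, 9954 in replicate 2 and 7898 in replicate 3. The lists give no read counts, so the depth behind each value is unknown. The tagged gene ac (FBgn0000022) had 2 optimal summits in or near it, the stronger of which ranked 65.

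Almost no Cpr gene had an Ac-eGFP summit in or near it. A gene was called bound when an optimal summit fell in it, or no more than 2000 bp from one of its ends. By this rule 2 of the 70 Cpr genes were bound (2.86%, exact binomial 95% interval 0.348 to 9.94%), against 19.0% of all protein-coding genes. The 2 were Cpr31A and Cpr76Ba. Cpr genes are short, with a median length of 1093.5 bp against 2170 bp for other genes, and short genes catch fewer summits. Summing over the Cpr genes the share of other genes bound in the same decile of gene length gave 9.72 genes, so the observed count was 0.206 times the number from length deciles. The 3 shortest deciles, with genes of up to 1343 bp, held 42 of the 70 Cpr genes. In the shortest decile none of 13 Cpr genes was bound, against 7.59% of other genes, and in the next 1 of 20 was bound, against 9.73%. The interval covers counting error only, and neighbouring Cpr genes can share a summit, so they are not independent of each other.

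The replicates taken one at a time gave the same low counts. Replicate 1 placed a top summit in or near 3 Cpr genes (4.29%), against 19.6% of all genes and 10.1 Cpr genes from length deciles. In replicate 2 the count was 1 (1.43%), against 18.6% of all genes and 9.61 from length deciles. In replicate 3 it was also 1 (1.43%), against 18.3% and 9.52. The mean share over replicates was 2.38% ± 1.65 (SD, n = 3), and the mean ratio to the number from length deciles was 0.168 ± 0.111 (SD, n = 3). The 3 replicates therefore all lay below the length-matched number, by more than the spread between them. Cpr31A was the only Cpr gene with a top summit in every replicate. Cpr73D and Cpr76Ba had one in replicate 1 only, and the other 67 (95.7%) had none in any, against 73.0% of all genes.

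A looser threshold raised the counts for Cpr genes and for other genes together. With every region at a q value of at most 0.05, replicate 1 had a summit in or near 6 Cpr genes (8.57%) against 23.0% of all genes, and length deciles gave 11.8. Replicate 2 had 11 (15.7%) against 43.1% of all genes and 24.3 from length deciles. Replicate 3 had 6 (8.57%) against 38.1% and 21.2. The ratios were 0.507, 0.454 and 0.283 in the same order, all below 1. At this threshold 54 Cpr genes (77.1%) had no region in any replicate, against 49.4% of all genes and 40.9 Cpr genes from length deciles. A further 11 (15.7%) had one in 1 replicate, against 15.9% of all genes, and 3 (Cpr35B, Cpr73D and Cpr76Ba) had one in 2. Cpr31A and Cpr100A had one in all 3, or 2.86% of Cpr genes against 18.9% of all genes and 9.52 Cpr genes from length deciles.

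**Figure D1:**
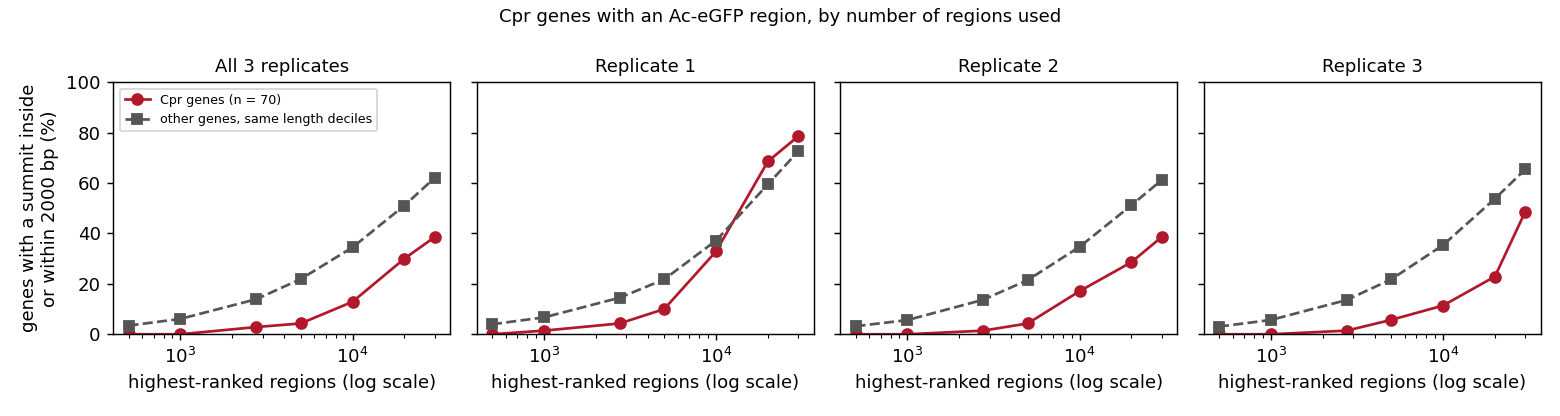
Percentage of genes with a summit inside or within 2000 bp (vertical axis) by the number of highest-ranked regions used (horizontal axis, log scale), for the regions of all 3 replicates together and for each replicate. Red circles are the 70 Cpr genes and grey squares the percentage given by other genes of the same length deciles. The Cpr genes lie below the other genes at every number in 3 of the 4 panels, while in replicate 1 they rise above them from 20000 regions on.

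As a ratio to the number from length deciles, the count of Cpr genes was lower among the strongest regions than in the full lists. None of the 1000 strongest optimal regions fell in or near a Cpr gene, where length deciles gave 4.27. With 5000 regions from all replicates together the count was 3 against 15.4, a ratio of 0.195 and close to that of the optimal list, with 10000 it was 9 against 24.1, and with all 30000 it was 27 against 43.5, a ratio of 0.621. The plot of bound genes by number of regions shows the same order in replicates 2 and 3, where all 30000 regions reached 27 Cpr genes against 42.9 and 34 against 45.8. Replicate 1 stood apart in its weak regions. Its 10000 highest regions reached 23 Cpr genes against 26.1, its 20000 highest reached 48 against 41.6, and all 30000 reached 55 against 50.8. Replicate 1 also had the fewest regions at a q value of at most 0.05, so most of its list lay beyond that limit, and why its weak regions fell more often near Cpr genes was not tested.

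No Cpr gene had an optimal summit at its own transcription start. Within 500 bp of an annotated start the count was 0 of 70, which allows a share of up to 5.13% by the exact 95% interval, while 9.01% of all genes had one and length deciles gave 4.43 Cpr genes. Within 1000 bp it was still 0, against 11.0% of other genes. Weaker regions of single replicates did reach a few Cpr starts. Within 500 bp of a start, regions at a q value of at most 0.05 were found for 0 Cpr genes in replicate 1, against 10.7% of all genes, for Cpr35B and Cpr65Av in replicate 2, against 24.4%, and for Cpr78Cb in replicate 3, against 19.7%. The numbers from length deciles were 5.4, 12.5 and 9.97. The region of Cpr78Cb in replicate 3 lay 171 bp from its start, with rank 4324 and a q value of 0.00474, and replicate 1 had one 112 bp from the start of Cpr78Cc with a q value of 0.0662. In the optimal list, the start nearest to a summit was that of Cpr76Ba at 1610 bp, and it was the 1 Cpr start within 2000 bp, where 14.3% of other genes had one. Within 5000 bp there were 6 Cpr starts (8.57%) against 23.9%, and within 10000 bp there were 10 (14.3%) against 36.6%. The order turned around at longer range. Within 50000 bp there were 62 Cpr starts (88.6%), against 78.8% of other starts. The other genes in these distance steps were not matched for length.

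**Figure D2:**
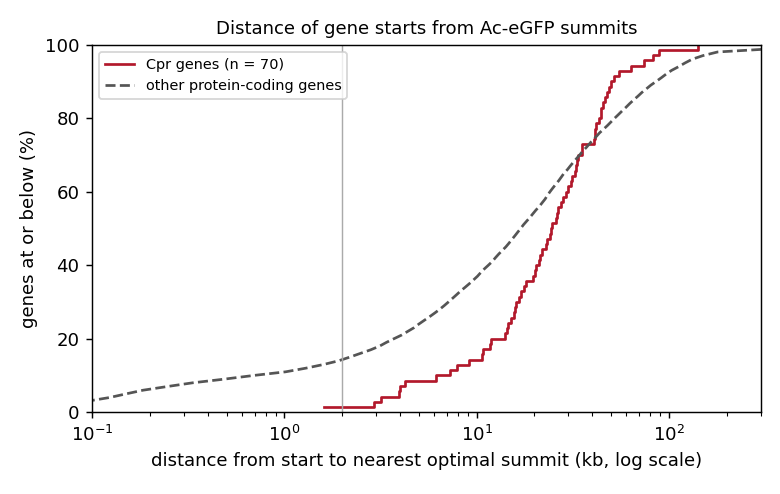
Percentage of genes (vertical axis) whose nearest annotated start lies within a given distance of an optimal summit (horizontal axis, kb, log scale), for the 70 Cpr genes (red) and other protein-coding genes (dashed, not matched for length). The grey vertical line marks 2 kb, where 1 Cpr start lies within reach, and the 2 curves cross between 20 and 50 kb.

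The median distance from a Cpr start to the nearest optimal summit was 24492 bp, with the middle part of the genes (percentiles 25 to 75) between 15296 and 40960 bp. Other genes had a median of 16963 bp and other genes of the 3 shortest deciles one of 22797 bp, so the median differed little from that of short genes, while the lower tail did. The percentile 25 was 7731 bp for other short genes. Top regions of the replicates gave Cpr medians of 23662, 24737 and 32214 bp for replicates 1, 2 and 3, where other genes had 16043, 17591 and 17732 bp. All 3 replicates placed the Cpr starts farther from a summit at the median than other genes, which were not matched for length in this comparison. The Cpr genes did not sit in unusually long stretches without summits. The interval between the 2 optimal summits to either side of a Cpr start had a median of 77.4 kb, against 95.8 kb for other starts.

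Of the 2 bound genes, Cpr31A (FBgn0053302, 2L:10054213-10055935, plus strand) had the steadier summit. The optimal region at 2L:10057212-10057601 had its summit at 10057407, a q value of 0.000221 and rank 2208 of 2756. It ranked 2255 in replicate 1, 2538 in replicate 2 and 2277 in replicate 3 (2357 ± 157, SD, n = 3), with summits 0, 8 and 15 bp from the optimal one. The q values in the replicates were 0.00688, 0.000127 and 0.000659. The summit lay 1472 bp past the 3′ end of Cpr31A and 3194 bp from its start, so it was nearer to another gene than to the cuticle gene. It fell in an intron of Pen (FBgn0287720, 2L:10056900-10060095, plus strand), which encodes an importin alpha that carries proteins into the nucleus, and lay 507 bp from the start of Pen. Cpr31A thus counts as bound through a region inside its neighbour.

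Cpr76Ba (FBgn0036878, 3L:19517552-19518332, minus strand) was the only Cpr gene whose own start was the nearest to its summit. The optimal region at 3L:19516527-19516916 had its summit at 19516722, also with a q value of 0.000221, and ranked 2003. Its place in the replicates varied widely, with rank 700 in replicate 1, 4352 in replicate 2 and 10466 in replicate 3 (5173 ± 4934, SD, n = 3). Its q values in replicates 1, 2 and 3 were 0.00214, 0.00126 and 0.0981, the last of them past 0.05. The position was steady, with replicate summits 18, 5 and 50 bp from the optimal one. The summit was intergenic, 830 bp past the 3′ end of Cpr76Ba and 1610 bp from its start, and the gene on its other side, CG9452, lay 12852 bp away. Cpr76Ba is the first gene of the array Cpr76Ba to Cpr76Bd, and the next Cpr starts, those of Cpr76Bb and Cpr76Bc, lay 2927 and 4223 bp from the same summit.

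The sequence around both summits is shown because these are the only optimal summits assigned to Cpr genes. Each is 201 bases of the dm6 genome centred on the summit, plus strand, from RefSeq's release 6 assembly. Capitals mark a match to GCAGCTG or GCAGGTG on either strand, the E-box form known for Achaete with Daughterless. The region counted for Cpr31A (2L:10057307-10057507) held 1 match and the one at Cpr76Ba (3L:19516622-19516822) held none. Of all 2756 optimal summits, 493 (17.9%) had a match within 100 bp.
Cpr31A summit: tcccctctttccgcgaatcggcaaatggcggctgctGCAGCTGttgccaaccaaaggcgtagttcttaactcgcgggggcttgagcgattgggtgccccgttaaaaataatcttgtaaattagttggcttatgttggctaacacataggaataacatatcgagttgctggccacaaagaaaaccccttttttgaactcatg
Cpr76Ba summit: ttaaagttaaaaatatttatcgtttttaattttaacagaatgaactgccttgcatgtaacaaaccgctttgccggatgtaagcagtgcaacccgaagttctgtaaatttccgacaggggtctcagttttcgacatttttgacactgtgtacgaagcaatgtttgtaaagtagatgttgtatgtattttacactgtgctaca

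**Figure D3:**
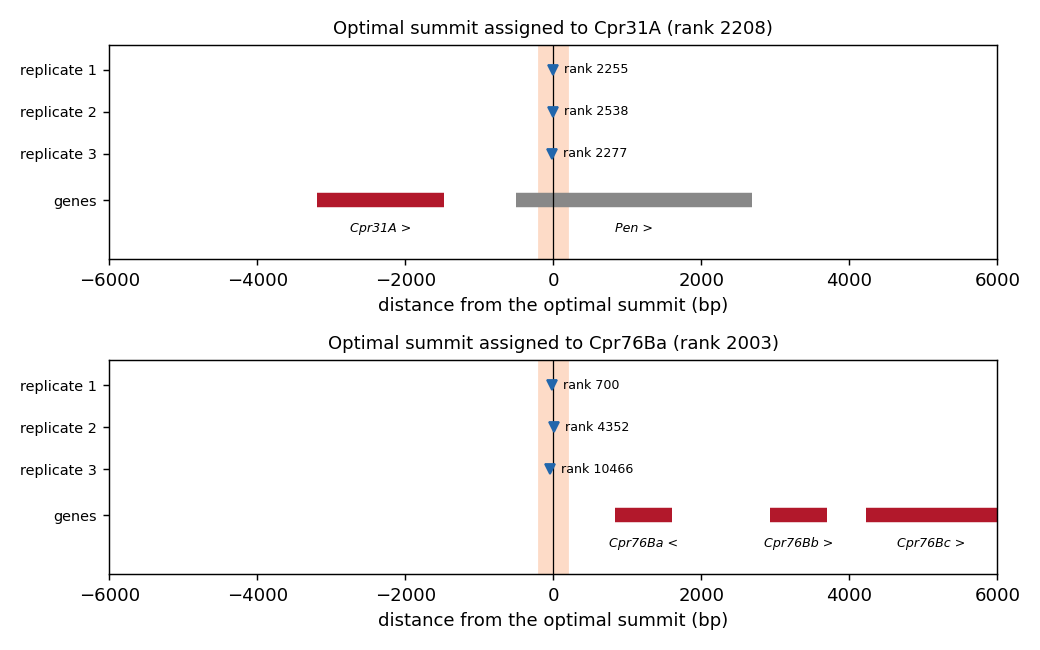
Distance from the optimal summit in bp (horizontal axis) for the summits counted for Cpr31A (upper) and Cpr76Ba (lower). Red bars are Cpr genes, grey bars other protein-coding genes, arrow signs their strand, the shaded band the peak's extent, and triangles the replicate summits with their ranks. The summit counted for Cpr31A lies in Pen, and the one at Cpr76Ba lies past the 3′ end of that gene.

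A few Cpr genes had weaker or less reproducible regions. Cpr100A (FBgn0039805, 3R:30867521-30869184, plus strand) had a region at 1800 bp before its start. Its summit at 3R 30865721 ranked 3840 in the list of all replicates together, beyond the optimal list, with a q value of 0.00221. Replicate 1 ranked that position 2853 and replicate 2 ranked a summit at 30865700 4095th. In replicate 3 the best region of Cpr100A was another one, inside the gene at 30868254, with rank 7890 and a q value of 0.0499. The gene thus had a region at a q value of at most 0.05 in each replicate, but at the same place in only 2.

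Cpr73D (FBgn0036680, 3L:16939100-16957689, minus strand), the longest Cpr gene at 18590 bp, had a top summit in replicate 1 at 3L 16956868, with rank 2253 and a q value of 0.00688. The summit lay 821 bp from its own start and 571 bp from the start of Ogdh, the gene of a tricarboxylic acid cycle enzyme that overlaps Cpr73D on the other strand. Replicate 3 had a region at 16955390 with rank 4256 and a q value of 0.00458. It lay 110 bp from the start of Ogdh and 2299 bp from that of Cpr73D. Replicate 2 had none near Cpr73D in its full list. The optimal list had none within 54830 bp of the start. Cpr35B (FBgn0028871), on arm 2L, had q values of 0.0338, 0.0495 and 0.0673 for its best region in replicates 1, 2 and 3, and the 3 best regions had different summits. Only the best region of each gene in each replicate was compared here.

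Just outside the limit of 2000 bp stood Cpr66Cb (FBgn0035875), whose 3′ end lay 2048 bp from a summit of rank 2749. That summit fell in an intron of Prim1, a gene for a DNA primase subunit, and 142 bp from the start of CG7083. Cpr78Cc (FBgn0037069) was 3403 bp from a strong summit of rank 47, which lay 84 bp from the start of CG11309 and inside that gene. Cpr67B (FBgn0035985) was 4782 bp from a summit of rank 2195 that lay 82 bp from the start of Cpsf5, an RNA 3′-end processing gene. Cpr76Bb and Cpr76Bc were beside the summit of Cpr76Ba. Extending genes by 5000 bp added these 5 Cpr genes and gave 7, against 16.1 from length deciles. With an extension of 1000 bp Cpr76Ba alone remained, against 7.06.

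The Cpr genes were spread over 33 places. Joining Cpr genes less than 20000 bp apart gave 12 arrays with 49 of the genes and 21 single genes. By arm, 35 lay on 3L, 21 on 2R, 5 each on 2L and 3R, 4 on X and 0 on 4. No array had an optimal summit between its first and last base. The largest, Cpr49Aa to Cpr49Ah on 2R, held 8 genes in 38.5 kb, and the stretch without optimal summits around it ran over 101 kb. The 7 genes Cpr47Ea to Cpr47Eg on 2R spanned 26.7 kb, and the nearest summit was 10753 bp from the array. The 7 genes Cpr65Au to Cpr65Az on 3L spanned 30.3 kb together with 11 other genes, and none of these 11 was bound either. Weak regions did fall in this array, with 6 summits of the 30000 from all replicates together.

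**Figure D4:**
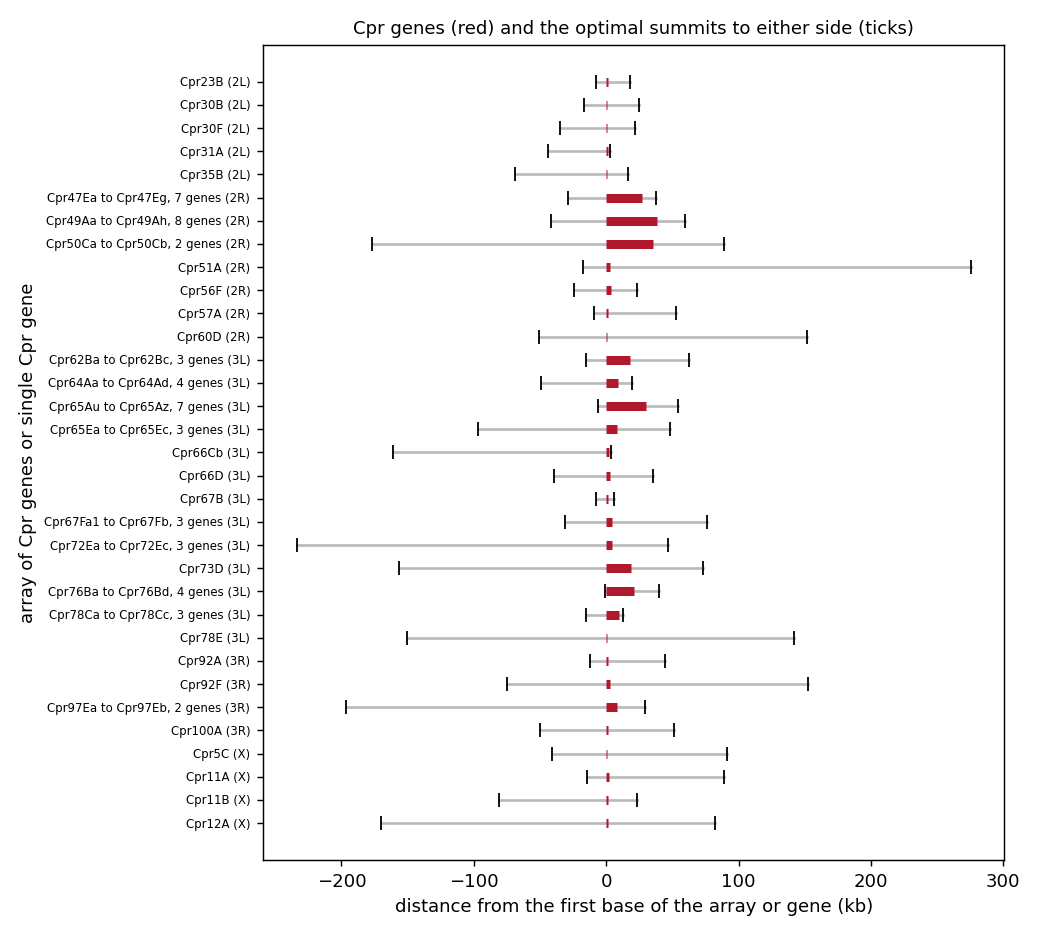
Position of the optimal summits to either side of each Cpr array or single Cpr gene (black ticks), as distance from the first base of the array or gene in kb (horizontal axis), one row per array or gene with its chromosome arm. Red bars are the Cpr genes or arrays and grey lines the stretch between the 2 summits. No tick lies inside a red bar, and the summits of Cpr31A, Cpr66Cb and Cpr76Ba lie closest.

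Arrayed and single Cpr genes both had few summits. In arrays 1 of 49 was bound, Cpr76Ba, against 6.61 from length deciles, and among single genes 1 of 21, Cpr31A, against 3.12. The 23 genes without a Cpr symbol lying inside the 12 arrays had 0 bound, against 2.4, a number too small to read as a low count. They were taken by position only, and cuticle genes of other names were not set apart. Most Cpr genes have unique sequence to which reads can be placed. The share of 25-base words that occur once in the genome, over the gene and 2000 bp to each side, had a median of 99.8% for Cpr genes and 99.9% for other genes, and 63 of 70 Cpr genes were above 95%. The lowest were Cpr65Ax1 at 31.2% and Cpr65Ax2 at 50.5%, a pair of near-identical copies, then Cpr73D at 59.7%. Whether this changed the regions found there was not tested. Among genes above 95%, 2 Cpr genes were bound and the ratio to the number from length deciles was 0.216.

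The Cpr promoters were not poor in the E-box. In the 300 bases from 250 before to 50 after the annotated start, 9 Cpr genes (12.9%) had GCAGCTG or GCAGGTG on either strand, against 8.68% of other genes. They were Cpr12A, Cpr47Ef, Cpr49Ae, Cpr64Ab, Cpr64Ac, Cpr72Ec, Cpr73D, Cpr76Bc and Cpr97Eb. None of the 9 was bound, where 2.86% of all Cpr genes and 19.0% of all protein-coding genes were. With so low a share among all Cpr genes, 0 of 9 does not set these genes apart from the rest. Over the whole windows of gene and 2000 bp to each side, Cpr genes had 190 E-boxes in 370 kb, or 0.513 per kb, against 0.483 per kb for other genes. Of the 190, 1 (0.526%) lay within 100 bp of an optimal summit, against 1.22% in the windows of other genes. With all 30000 regions from the 3 replicates together, 6 (3.16%) did, against 7.38%. These are the windows in which summits were counted above, so the low share of matches by a summit follows from the low count of summits and is no separate result.

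Promoter matches in 6 of the genes, those on 3L and 3R, are shown as 30 bases of the dm6 genome on the strand of the gene, from RefSeq's release 6 assembly, because these genes carry the E-box before their start and had no optimal summit there. Capitals mark the match, read on the gene's strand. In Cpr64Ac 2 overlapping matches share the capitals, and in Cpr76Bc the match reads as the reverse complement. The windows are at 3L:4211656-4211685 on the minus strand for Cpr64Ab, 3L:4212981-4213010 on the minus strand for Cpr64Ac, 3L:16367362-16367391 on the minus strand for Cpr72Ec, 3L:16957737-16957766 on the minus strand for Cpr73D, 3L:19520771-19520800 on the plus strand for Cpr76Bc and 3R:27091237-27091266 on the minus strand for Cpr97Eb. The first base of the match lay 133 bp before the start in Cpr64Ab, 39 in Cpr72Ec, 65 in Cpr73D, 162 in Cpr76Bc and 124 in Cpr97Eb. The nearest optimal summit was between 4223 bp (Cpr76Bc) and 54830 bp (Cpr73D) from the start of these 6 genes. In Cpr73D the E-box lay beside the start, while the top summit of replicate 1 was 821 bp inside the gene.
Cpr64Ab: gggaaactttttGCAGGTGgaccaggcaca
Cpr64Ac: ttttttccgctgGCAGCTGCcgccagtttc
Cpr72Ec: ctcgagttacccGCAGGTGgtataaaacac
Cpr73D: gctcgcgtgagaGCAGCTGagttattagaa
Cpr76Bc: aatgccattagaCAGCTGCagcgaagcgtc
Cpr97Eb: cgttttctgatcGCAGCTGatcgccagatc

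Many Cpr promoters held a TATA box, the core promoter element bound by the TATA-binding protein. TATAAA on the strand of the gene, within 45 to 20 bp before the start, was present in 39 Cpr genes (55.7%) and in 8.57% of other genes. In the 300 bases on either strand it was present in 70.0% of Cpr genes and 45.6% of other genes. TATCGATA, the motif of the factor DREF at many housekeeping promoters, was present in 1 Cpr gene (1.43%) and 9.40% of other genes. Among other genes, 106 of 1191 (8.90%) with TATAAA at that place were bound, and 2547 of 12707 without it. Of the Cpr genes with it 2 of 39 were bound, and of those without it 0 of 31. Taking the share from other genes alike in both length decile and this TATAAA class lowered the number to 8.21, and the ratio of observed to this number was 0.244.

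Both bound Cpr genes had a TATA box, shown in the last 60 bases before each annotated start on the strand of the gene (dm6, RefSeq's release 6 assembly, 2L:10054153-10054212 on the plus strand for Cpr31A and 3L:19518333-19518392 on the minus strand for Cpr76Ba). Capitals mark TATAAA. Neither summit lay at these sequences.
Cpr31A upstream: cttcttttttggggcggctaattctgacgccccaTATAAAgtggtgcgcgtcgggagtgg
Cpr76Ba upstream: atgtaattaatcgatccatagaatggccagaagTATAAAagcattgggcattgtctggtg

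**Figure D5:**
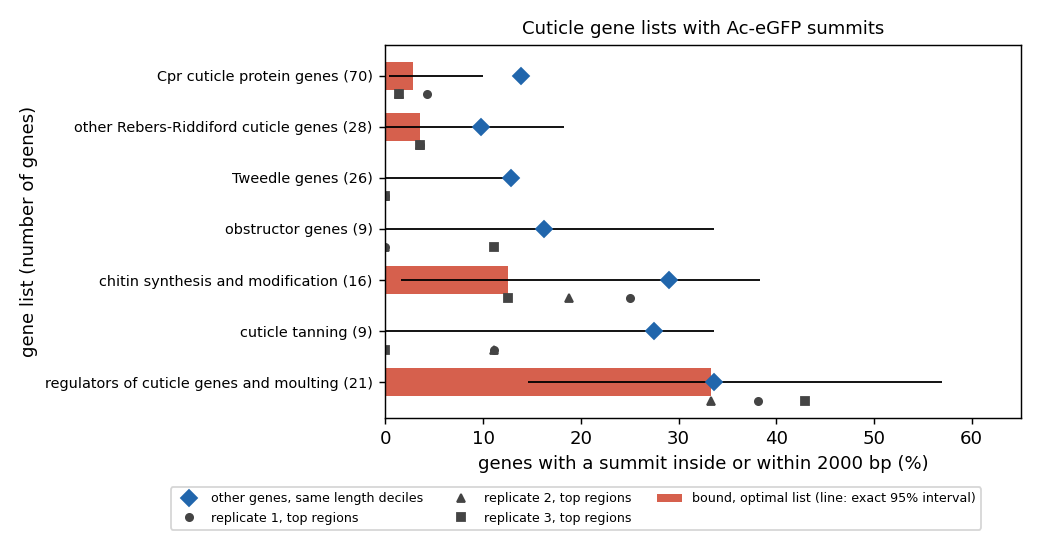
Percentage of genes with a summit inside or within 2000 bp (horizontal axis) in the Cpr genes and 6 other lists of cuticle genes (vertical axis, number of genes in brackets). Bars are the optimal list with exact binomial 95% intervals as lines, dark symbols the top regions of the replicates, and blue diamonds the percentage from other genes of the same length deciles. The bars of the structural protein, chitin synthesis and tanning lists all end left of their diamonds, while the regulators' bar ends at theirs. Only the interval of the Cpr genes ends left of its diamond.

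Other genes of the cuticle were set beside the Cpr genes to see where the low count held. Among 28 further Rebers-Riddiford cuticle genes with other names, such as the larval and pupal cuticle protein genes, 1 was bound (3.57%), against 2.75 from length deciles, and the replicates gave 3.57% ± 0 (SD, n = 3). It was resilin, the gene of an elastic cuticle protein, through a summit of rank 998 in an intron of RalGPS that lay 4300 bp from the start of resilin. The Tweedle genes, another family of cuticle structural proteins, had 0 of 26 bound against 3.34, and each replicate's top regions also gave 0. The obstructor genes, which encode secreted chitin-binding proteins, had 0 of 9 against 1.46, and replicate 3 alone had 1 in its top regions. The cuticle structural lists thus all had counts below their length-matched numbers, with intervals that are wide for the smaller lists.

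Enzymes and regulators differed among themselves. Of 16 genes of chitin synthesis and modification 2 were bound, against 4.64, with 18.8% ± 6.25 (SD, n = 3) in the replicates. These were Chs2, a chitin synthase gene, with a summit of rank 602 at 316 bp from its start, and Gfat2, a hexosamine pathway enzyme gene, with one of rank 1554 at 66 bp. Gfat2's strongest summit ranked 7468 in replicate 1, against 1493 and 1697 in replicates 2 and 3. Of 9 genes of cuticle tanning 0 were bound against 2.47, with 7.4% ± 6.41 (SD, n = 3) in the replicates. The 21 regulators of cuticle genes and moulting had 7 bound against 7.06, and 38.1% ± 4.8 (SD, n = 3) in the replicates, close to genes of their length. The strongest were at grh (rank 132), the gene of an epidermal transcription factor, and at the ecdysone-pathway nuclear receptor genes Hr4 (rank 151), Eip75B (rank 252) and Hr3 (rank 385). Blimp-1 was among the 7 through a summit of rank 2698 that lay 841 bp from the start of lin-28. That summit lay 10193 bp from the start of Blimp-1 and ranked 1244, 5638 and 7502 in replicates 1, 2 and 3. The replicates' range for the regulators, 7 to 9 of 21, lay above that for the Cpr genes, 1 to 3 of 70. Of all protein-coding genes 19.6, 18.6 and 18.3% were bound in the top regions of replicates 1, 2 and 3. Regulators are longer genes and their count was near that of genes of their length, so the gap between the 2 lists is no result about the regulators. Each list is best read against its own length-matched number.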

How the data were processed

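The authors deposited, per the file headers and labels, lists of 30000 regions for each of 3 replicates and for all replicates together, and an optimal list thresholded by the irreproducible discovery rate (IDR), which scores how alike the replicates rank a region. For the caller, its settings and the threshold, the sources used here give nothing. The deposited signal value, on an unstated scale, was used only to rank regions within a list. The deposited −log10 q value gave the q values. Lists on dm3 and the control alignment were not used here. Replicate labels do not say whether embryos came from separate collections, so the spread may be partly technical.

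Gene models were Ensembl release 115 (BDGP6.54, dm6 coordinates) on arms 2L, 2R, 3L, 3R, 4, X and Y, and coordinates count from 1. Genes were sorted into 10 length deciles. The Cpr genes, the lists and the rule for named genes were chosen with earlier results of these data known, so counts are descriptions with no p-value and the lists support no direction of their own. Genes named were bound Cpr genes, the gene start nearest each such summit, the 5 next nearest Cpr genes, ac, and up to 4 bound genes of each other list by rank. Further Cpr genes and Blimp-1 were named after their values were seen. Of the other lists' symbols, AANAT1 was matched through its current symbol speck, and Dat had no match. Scripts used Python 3.11.15, NumPy 2.4.6, pandas 2.3.3 and SciPy 1.17.1, and gene assignment was tested on simulated summits. Alternatives were other extensions, region sets, comparison genes and each replicate left out. A list without 1 replicate held the optimal regions with a top summit within 150 bp in both other replicates.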

Additional observations from a re-analysis of the deposited data

How the results depend on the processing

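No Cpr gene had a summit at its own start under any of 6 alternatives, which all used optimal or pooled regions. The 1000 strongest regions and the lists without 1 replicate are parts of the optimal list, so their 0 was fixed beforehand. Only pooled regions at a q value of at most 0.01 and a limit of 1000 bp could have differed. Single replicates at a q value of at most 0.05 had 0, 2 and 1 such genes. The count of 2 bound Cpr genes became 1 with genes extended by 1000 bp and 7 with 5000 bp, and 0 with only summits within 1000 bp of a start or with the 1000 strongest regions. It was 1 (lowest and highest) without replicate 1, 2 or 3, each time Cpr31A. That outcome was fixed by the top regions given above, since Cpr31A had a top summit in every replicate and Cpr76Ba in replicate 1 only. Leaving out a replicate could only lower this count, so it is no separate check. The ratio to the number from length deciles was below 1 in all 12 alternatives, but most of them could only keep or lower the count of 2. Only the extension of 5000 bp (7 against 16.1) and pooled regions at a q value of at most 0.01 (3 against 15.3) could have raised it. The ratio became 0.435 with 5000 bp, 0 with starts alone and 0 with the 1000 strongest regions, and was 0.149 to 0.166 with a replicate left out. The median distance of Cpr starts became 44238 bp with the 1000 strongest regions and 28058 to 35580 bp without 1 replicate, where fewer regions remain. The replicates' mean share became 0.476% with the 1000 strongest regions and 11.0% at q values of at most 0.05. Chosen after seeing the data were the restriction to genes with mostly unique sequence, the TATAAA class (ratio 0.244) and the alternatives for the other lists, of which chitin synthesis and modification fell to 1 to 2 bound with a replicate left out (1 without replicate 2). Depth is unknown, so absence of a summit is absence from a list, not from chromatin.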

Other observations

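The genes next to the Cpr arrays and single Cpr genes had a count somewhat below their length-matched number. Neither this gap nor their difference from the Cpr genes was tested. Of 66 such flanking genes 9 (13.6%) had an optimal summit inside or within 2000 bp, against 13.3 from length deciles. They were CG11309, CG4022, CG42258, Dys, GV1, ImpL2, Pen, Pex2 and Pits. ImpL2, which encodes a secreted binding protein of insulin-like peptides, borders the array Cpr64Aa to Cpr64Ad, and Dys, the dystrophin gene, borders Cpr92A. The genes flanking a Cpr gene thus had a share between that of the Cpr genes, 2.86%, and that of all protein-coding genes, 19.0%. These shares are not matched for length.

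With the full lists of 30000 regions, Cpr genes often had a region in 1 replicate alone. In these lists 9 Cpr genes (12.9%) had no region in or near them in any replicate, against 8.77% of all genes and 9.56 from length deciles. There were 26 (37.1%) with one in 1 replicate, against 16.8% and 14.1. A further 15 (21.4%) had one in 2, against 18.4% and 13.8, and 20 (28.6%) had one in all 3, against 56.0% and 32.6. The counts for none and for 2 replicates were thus close to those of genes of the same length. Replicate 1 reached 55 Cpr genes, replicate 2 reached 27 and replicate 3 reached 34. The best rank over Cpr genes with a region had a median of 10542 in replicate 1, 13453 in replicate 2 and 21301 in replicate 3, where other genes with a region had 7947.5, 6875 and 7345.5. Of the other lists, the Tweedle genes lay farthest from optimal summits, with a median of 79628 bp from start to summit.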
